A study of Rattus norvegicus with 24 samples.

Results

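Wnt ligands, their Frizzled receptors and the inhibitors of both were followed in the rat urethra after simulated vaginal delivery (SVD), a birth injury made by pudendal nerve crush and vaginal distension. The genes were picked by symbol. They are the 19 Wnt ligands, 10 Frizzled receptors, 10 secreted inhibitors of the Sfrp, Dkk, Frzb and Wif1 kinds and 2 membrane inhibitors (Apcdd1 and Apcdd1l) of the table, with Axin2, Lgr5 and Rspo3, which makes 44 of 32883 genes. Each symbol matched 1 row.

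All 24 urethras came from 12-week-old virgin female Sprague-Dawley rats, and every rat, controls included, had undergone SVD. An hour later the rats received saline, allogeneic mesoangioblasts (MABsallo) or allogeneic mesoangioblasts that overexpress VEGF (MABsallo-VEGF) through the aorta, and 4 urethras of each treatment were taken at 3d and 4 at 7d. Mesoangioblasts are vessel-associated muscle progenitors, sorted here from hind limb muscle as alkaline phosphatase positive cells. They carried a lentiviral eGFP and luciferase reporter behind a CMV promoter, and the MABsallo-VEGF cells expressed VEGF165 and a truncated CD34 from a lentiviral SFFV promoter, so that the genotypes WT and VEGF OE of the labels refer to the injected cells and not to the host. The labels mark 2 of the MABsallo-VEGF urethras at 7d as recovered. Uninjured urethras were not analysed here.

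Wnts are secreted, lipid-modified proteins that bind a Frizzled together with the co-receptors Lrp5 or Lrp6, which keeps beta-catenin from being degraded and lets it act with TCF/LEF factors on target genes such as Axin2. Some Wnts, Wnt5a among them, also signal through Frizzleds and other receptors without beta-catenin and set cell polarity and movement. Sfrp proteins, Frzb and Wif1 catch Wnts outside the cell, some but not all Dkk proteins occupy the Lrp co-receptors, and Apcdd1 blocks Wnts at the cell surface. In the urogenital tract Wnts pass between epithelium and stroma, and in injured muscle they take part in the renewal and fusion of muscle progenitors.

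Libraries held 2170695 to 10166052 reads on genes, with the lowest depth in the cell-treated groups at 3d (2170695 to 4491900 reads after MABsallo). The values are normalized gene counts, reads divided by the size factor of the sample, and 1 read was worth 1.67 to 9.23 of them. On the first principal component of the 500 most variable genes (70.7% of their variance), saline replicate 6 at 3d (54.6) lay among the cell-treated samples of that day (49.8 to 90.1 in 7 of 8) and MABsallo-VEGF replicate 4 at 3d (0.70) lay below them, so that results at 3d are also given without these 2 libraries. Smooth muscle markers, which the urethra should hold, summed to 22471 or more in every sample. They were lowest in saline replicate 8 (22471) and MABsallo-VEGF replicate 2 (54690) at 3d, against 75474 to 287378 in the other samples. Epithelial markers were nearly missing from these same 2 libraries, which are not those that stood apart and are described with Wnt4. As bulk tissue was sequenced, fewer cells of a type and less RNA per cell cannot be told apart in any of these values.

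Of the 44 genes, 33 had a mean of at least 2 normalized counts over the 24 samples and were tested. The 11 others were Wnt1, Wnt3, Wnt3a, Wnt7a, Wnt8a, Wnt8b, Wnt9a, Fzd8, Dkk1, Dkk4 and Lgr5. No read was found in any sample for Wnt7a, Fzd8, Dkk1 and Dkk4, which allows up to 3 reads per library. Lgr5, a receptor for R-spondins, reached 12.5 normalized counts (3 reads) in 1 sample of MABsallo at 7d and was at or under 2 reads elsewhere. A gene was called where the limma adjusted p, taken over all 16287 genes tested, was under 0.05 and the level differed by more than 1 on the log2 scale.

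At 3d several inhibitors were lower after MABsallo. Against saline, 5 of the 33 genes tested were called lower (Apcdd1, Sfrp2, Wif1, Sfrp5 and Wnt10b) and 0 higher, whereas among all genes 2.86% were called lower and 9.4% higher. The background moved with the scaling, to 6.28% lower and 6.77% higher when the samples were scaled to the same total, where 10 of the 33 were called, and to 5.99% and 7.69% after quantile normalization, where 7 were, in both cases all lower. Of the 8 secreted inhibitors tested, 3 were called lower and 7 had a fold change below 0, with a median log2 fold change of -1.03 beside 0.07 for all genes tested. Of the 12 ligands tested 1 was called, of the 9 receptors 0. All comparisons with saline at 3d share the same 4 saline urethras.

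Apcdd1, which binds Wnts and their co-receptors at the cell membrane, held 486, 1054, 1476 and 1035 normalized counts in the 4 saline samples at 3d. After MABsallo it held 149, 503, 480.05 and 298. Saline replicate 6, the lowest of its group and 1 of the 2 libraries that stood apart, fell within the range of MABsallo, and the other saline samples were above it. The means were 358 ± 167 against 1013 ± 406 (SD, n = 4), a log2 fold change of -1.54 (SE 0.38, limma adjusted p = 0.0139), and without the 2 libraries that stood apart it was -1.86. After MABsallo-VEGF the gene held 568, 592, 414 and 824, values between the other groups that overlapped both, and its log2 fold change against saline was -0.69 (SE 0.38, limma adjusted p = 0.356).

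Sfrp2, a secreted Frizzled-related protein of stromal cells, held 5344, 4351, 6776 and 7689 normalized counts after saline at 3d. In the MABsallo urethras it held 767, 6483, 3268 and 1779. These 4 values spread widely and replicate 2 lay within the saline range, with the other MABsallo samples below it. Its log2 fold change was -1.35 (SE 0.43, limma adjusted p = 0.0384), from 6039.96 ± 1483 to 3074 ± 2494 (SD, n = 4). The MABsallo-VEGF samples held 3049.6, 4234, 1781 and 5824, which overlapped both of the other groups.

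Wif1, which binds Wnts through its WIF domain, held 37.9, 98, 39.3 and 63.3 normalized counts after saline and 14.2, 21.9, 18.5 and 21.7 after MABsallo at 3d. The groups did not overlap, at a log2 fold change of -1.51 (SE 0.49, limma adjusted p = 0.0399). After MABsallo-VEGF it held 43.3, 50, 45.4 and 49, all above the MABsallo samples and inside the saline range. The fold change between both cell types was 1.27 (SE 0.49, limma adjusted p = 0.704), with an unadjusted p of 0.0153, so that this separation did not pass adjustment.

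Sfrp5, another Wnt-binding Sfrp, held 124, 478, 14.3 and 63.3 normalized counts after saline and 0, 32.8, 55.4 and 0 after MABsallo, where it had no read in replicates 1 and 4. Saline replicate 9 lay within the MABsallo range. The means were 169.9 ± 210.3 and 22.1 ± 27.1 (SD, n = 4), and the log2 fold change was -3.73 (SE 1.19, limma adjusted p = 0.0384). In MABsallo-VEGF urethras it held 10.8, 150.02, 65.6 and 22.3, a range that overlapped both other groups.

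Wnt10b, a ligand of the beta-catenin branch, held 20.7, 35.3, 7.15 and 7.04 normalized counts after saline and 0, 5.47, 0 and 0 after MABsallo at 3d. The highest MABsallo value was 1 read and 2 of the saline values were 2 reads each. It was called lower by limma with an adjusted p of 0.0404, but the saline mean of 17.5 lay within what 3 reads a library allow in the MABsallo group, so that no fold is given. After MABsallo-VEGF it held 0, 41.7, 0 and 17.8.

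The number of genes called moved with single libraries, and so did the calls among all genes. It was 0 without saline replicate 8 or without MABsallo replicate 1, where 0.374% and 0.856% of all genes tested were called lower. It was 2 without saline replicate 9, saline replicate 10 or MABsallo replicate 3, and 3 without MABsallo replicate 4, against 5 with all, and there 1.22% to 3.83% of all genes were. Without saline replicate 8 the log2 fold changes were -1.49 for Apcdd1 (limma adjusted p = 0.0557), -1.49 for Sfrp2 (limma adjusted p = 0.0727) and -1.23 for Wif1 (limma adjusted p = 0.161). Without MABsallo replicate 1 they were -1.17 (limma adjusted p = 0.0599), -0.81 (limma adjusted p = 0.165) and -1.38 (limma adjusted p = 0.104). Apcdd1 was called in 6 of these 8 fits and every other gene in 3 or fewer. DESeq2 on the recovered reads called Apcdd1 and Sfrp5 (12.7% of all genes either way), and edgeR called Apcdd1 and Wif1 (11.5%). Without the 2 libraries that stood apart, Fzd1 (-1.10) and Fzd4 were called lower as well and Fzd7 (3.08) higher, Sfrp5 and Wnt10b were not called, and the background was 4.36% lower and 13.8% higher.

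**Figure D1:**
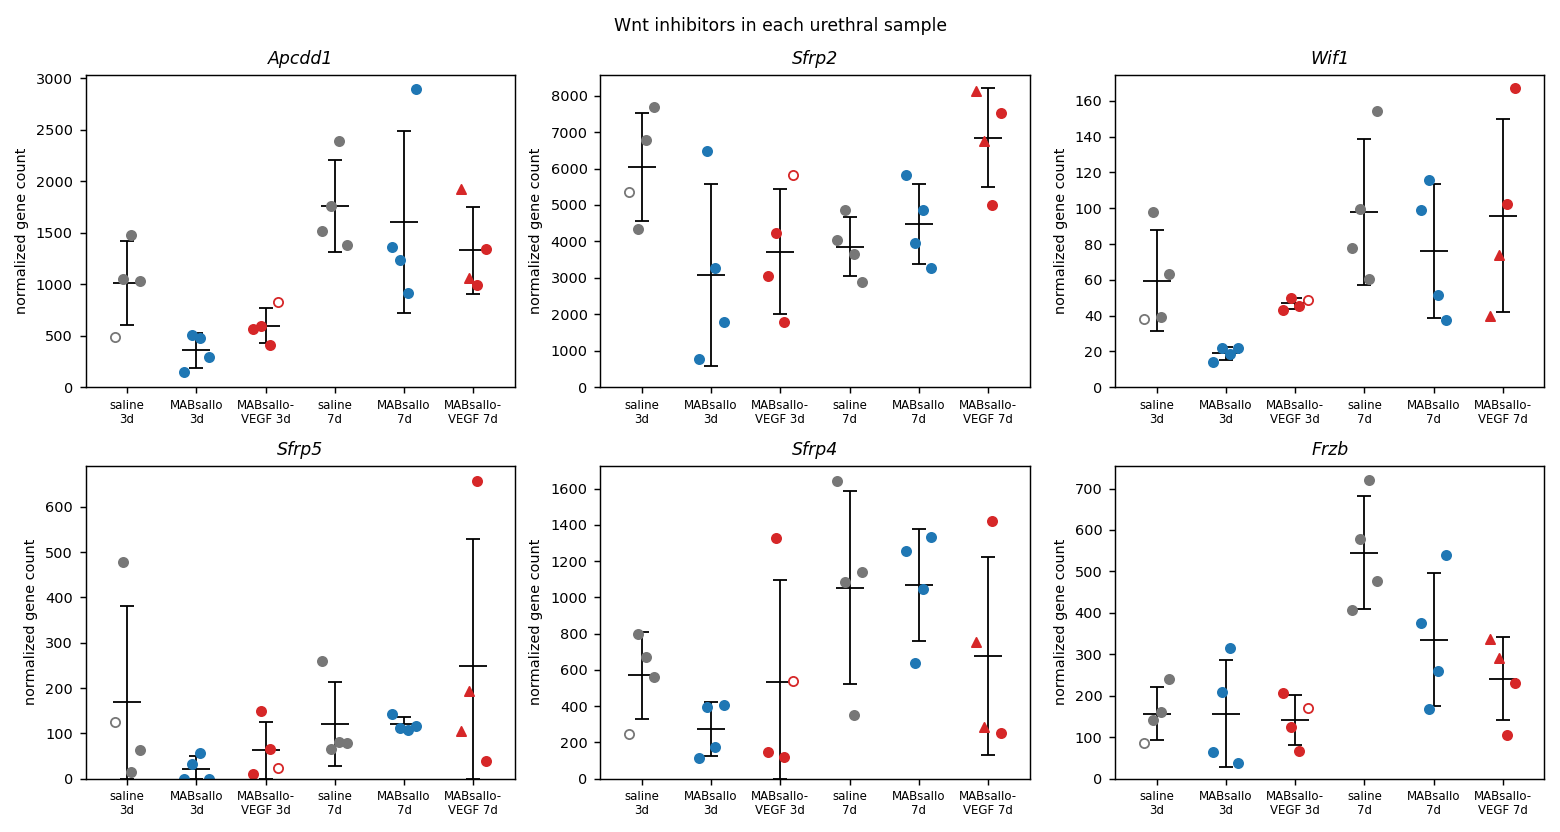
Normalized gene counts (vertical axes, from 0) of 6 Wnt inhibitors in the 6 groups (horizontal axes), 4 samples each, with the mean and SD as bars cut at 0. Open circles are the 2 libraries that stood apart and triangles the recovered urethras. Wif1 of the MABsallo samples at 3d (14.2 to 21.9) lies below every other group, and Apcdd1 is lower at 3d than at 7d after either cell type.

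Some markers of stromal and immune cells were also called lower after MABsallo than after saline at 3d. The sum of the fibroblast markers Col1a1, Dcn, Lum and Pdgfra was 260184 to 388823 normalized counts after saline at 3d, 36757 to 206260.00 after MABsallo and 72078 to 420317 after MABsallo-VEGF. Of these 4 markers 2 were called lower after MABsallo, and so were 3 of the 5 macrophage markers, whose sum was 7572 to 16153 after saline and 660.3 to 6456 after MABsallo. In the same comparison 1 of 4 striated muscle markers and 1 of 7 epithelial markers were called higher after MABsallo. None of these sums reached 0 in any library. The part of these cell types in the lower inhibitor levels was not tested.

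The secreted inhibitors called lower after MABsallo than after saline on the earlier day were Sfrp2, Wif1 and Sfrp5. Whether they moved together was not tested. Their promoters are shown with that of Axin2, the usual readout of beta-catenin signalling. The sequences were taken from RefSeq on the build GRCr8, run 5′ to 3′ on the strand of the gene from 250 bases before the start site to 50 after it, and were found for 32 of the 44 genes. Capitals mark the TCF/LEF word CTTTGNN, where each N is an A or a T, searched on both strands, so that a match on the other strand appears as its reverse complement.
Sfrp2 (chr2:171387286-171387585, plus strand): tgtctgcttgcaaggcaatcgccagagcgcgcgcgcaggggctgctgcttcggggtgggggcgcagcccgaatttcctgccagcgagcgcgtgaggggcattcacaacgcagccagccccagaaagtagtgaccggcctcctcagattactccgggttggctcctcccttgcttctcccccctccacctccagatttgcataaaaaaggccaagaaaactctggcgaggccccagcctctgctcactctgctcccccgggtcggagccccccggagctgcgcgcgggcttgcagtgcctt
Wif1 (chr7:58433329-58433628, plus strand): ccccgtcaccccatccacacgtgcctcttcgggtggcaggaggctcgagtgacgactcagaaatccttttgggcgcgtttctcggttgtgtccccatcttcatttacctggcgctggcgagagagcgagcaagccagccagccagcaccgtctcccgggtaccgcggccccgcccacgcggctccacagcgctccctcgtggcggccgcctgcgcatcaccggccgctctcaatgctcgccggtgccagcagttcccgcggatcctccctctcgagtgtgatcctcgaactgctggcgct
Sfrp5 (chr1:250960463-250960762, minus strand): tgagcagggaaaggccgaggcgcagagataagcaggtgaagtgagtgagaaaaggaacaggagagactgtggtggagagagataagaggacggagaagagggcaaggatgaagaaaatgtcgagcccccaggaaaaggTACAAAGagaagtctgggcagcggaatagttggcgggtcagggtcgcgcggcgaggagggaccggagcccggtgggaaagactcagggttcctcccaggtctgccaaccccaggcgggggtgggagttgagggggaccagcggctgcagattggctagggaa
Axin2 (chr10:94398535-94398834, plus strand): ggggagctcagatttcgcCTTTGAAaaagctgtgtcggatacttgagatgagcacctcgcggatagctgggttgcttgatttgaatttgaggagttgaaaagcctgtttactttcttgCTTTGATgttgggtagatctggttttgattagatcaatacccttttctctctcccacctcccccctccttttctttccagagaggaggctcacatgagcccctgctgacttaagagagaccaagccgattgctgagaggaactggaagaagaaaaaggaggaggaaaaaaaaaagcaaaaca
Axin2 held 2 matches, whose first bases lie at -232 and -132 from the start site, Sfrp5 held 1 at -112, and Sfrp2 and Wif1 held none in this window. In all, 6 of the 32 promoters held at least 1, and 17.1% of 33469 rat promoters of the same length did. A match is a run of letters and does not show that a factor binds there.

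The other secreted inhibitors were not called between MABsallo and saline at 3d. Dkk3, a Dkk family member abundant in muscle and stroma, held 1691, 1215, 2029.9 and 1538 normalized counts after saline and 696, 946, 619 and 1193 after MABsallo, which did not overlap, at a log2 fold change of -0.93 (SE 0.33, limma adjusted p = 0.0608). After MABsallo-VEGF it held 638, 908, 555 and 2534. Replicates 1 to 3 were below the saline range, and replicate 4, a library that stood apart, was above it. Without both such libraries the log2 fold change of MABsallo-VEGF against saline was -1.19 (limma adjusted p = 0.00616) and the gene was called.

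Sfrp1, the Wnt-binding Sfrp of many smooth muscle and stromal tissues, held 3567, 4480.1, 2816 and 3378 normalized counts after saline at 3d and 1441, 4355, 1791 and 1741 after MABsallo. MABsallo replicate 2 lay within the saline range and the rest below it, and the fold change was -0.74 (SE 0.35, limma adjusted p = 0.147). Sfrp4 held 244, 799.6, 672 and 559.5 after saline and 114, 394, 175 and 407 after MABsallo, with overlap, and Frzb held 86.1, 141, 161 and 239 and 63.9, 208, 314 and 38, with full overlap. The eighth secreted inhibitor tested, Dkk2, ran from 204 to 2622 over the samples at 3d and was the only one with a fold change above 0.

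**Figure D2:**
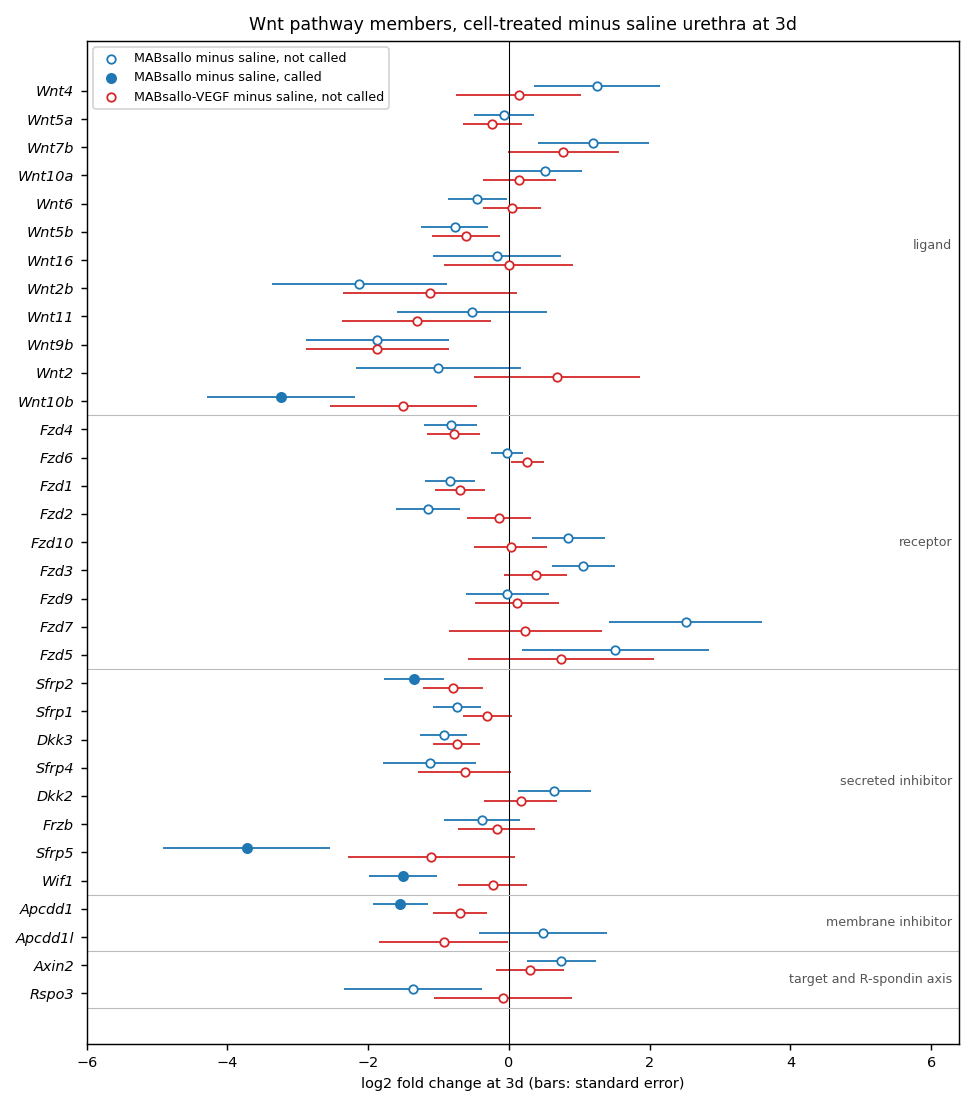
Log2 fold changes at 3d (horizontal axis, bars are the standard error of the limma fit) of the 33 genes tested, ordered by role, for MABsallo (blue) and MABsallo-VEGF (red) against the same saline samples. Filled points were called: 5 for MABsallo, all below 0, and 0 for MABsallo-VEGF.

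MABsallo-VEGF gave no called gene against saline at 3d with limma (0 of 33, and 0.0307% of all genes tested were called). At an unadjusted p under 0.05 there were 2 of 33, Dkk3 and Fzd4, both lower, beside 2923 of all 16287 genes tested. DESeq2 (2.88% of all genes called) and edgeR called 0. Without the 2 libraries that stood apart 2 were called lower, Dkk3 and Fzd1 (-1.21), where 2.19% of all genes tested were called lower. Leaving out MABsallo-VEGF replicate 4 alone gave 1, Dkk3, called lower, where 1.02% of all genes were called lower and 6.7% higher. The median log2 fold change of the 8 secreted inhibitors was -0.47, with 7 below 0, beside 0.04 for all genes.

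Between both cell types at 3d, limma called 0 of 33 genes (0.00614% of all genes), and DESeq2 and edgeR called 0. An unadjusted p under 0.05 was reached by 5 of 33, beside 999 of all 16287 genes tested. Of the 5, Wif1, Sfrp5 (2.63), Apcdd1 (0.85) and Fzd2 had log2 fold changes above 0 and Fzd7 (-2.28) one below 0. Thus the lower inhibitor values after MABsallo were not shown to differ from those after MABsallo-VEGF.

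Among the receptors, Fzd4, which also takes the ligand norrin in blood vessels, held 509.6, 1666, 833 and 918 normalized counts after saline at 3d. It held 412, 602, 406 and 646 after MABsallo and 406, 883, 333 and 610.01 after MABsallo-VEGF. Saline replicate 6 lay within both cell-treated ranges and saline replicate 8 was far above all other samples of the day. The log2 fold changes against saline were -0.83 (SE 0.37, limma adjusted p = 0.127) after MABsallo and -0.79 (SE 0.37, limma adjusted p = 0.264) after MABsallo-VEGF.

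Fzd1, a receptor of the beta-catenin branch, held 396, 851, 801 and 792 normalized counts after saline, 355, 470.5, 323 and 385 after MABsallo and 319, 425, 323 and 708 after MABsallo-VEGF at 3d. The low saline sample was again replicate 6 and the high MABsallo-VEGF sample was replicate 4, both libraries that stood apart, and without them the saline samples were above all cell-treated ones. With them the log2 fold change after MABsallo was -0.84 (SE 0.35, limma adjusted p = 0.103). Fzd6, a receptor of the planar polarity branch, held 713, 658, 876 and 760.1, 1207, 717, 711 and 467 and 1108, 700.1, 752 and 1099.8 in the same order, and its groups overlapped, with a fold change of -0.03 (SE 0.23, limma adjusted p = 0.946) after MABsallo.

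Fzd3, a polarity receptor with roles in axon guidance, held 58.5, 39.2, 60.8 and 70.4 normalized counts after saline and 121, 87.5, 166 and 108 after MABsallo at 3d. These groups did not overlap, at 1.06 (SE 0.44, limma adjusted p = 0.105), but the adjusted p missed the threshold. Fzd7, the receptor known from muscle stem cells, held 17.2, 0, 3.57 and 10.6 after saline and 35.5, 21.9, 102 and 10.8 after MABsallo, and 5.41, 16.7, 15.1 and 0 after MABsallo-VEGF. MABsallo replicate 3, the shallowest library, was the highest, and the fold change was 2.51 (SE 1.09, limma adjusted p = 0.115).

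Of the ligands, Wnt4, which patterns the female reproductive tract, split the libraries of 3d in 2. Its values were 3915, 216, 4067 and 4729.6 normalized counts after saline, 9769.8, 2883, 4025 and 4616 after MABsallo and 6937, 183, 6034 and 3112 after MABsallo-VEGF. Saline replicate 8 and MABsallo-VEGF replicate 2 were far below every other library of the series, which held 1619 to 9770. The same 2 libraries had the lowest sums of the 7 epithelial markers (Upk1a, Upk1b, Upk2, Upk3a, Krt5, Krt14 and Tp63), with 784 and 1467 against 9759 to 55547 in the 22 others.

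Wnt7b, a ligand of many epithelia, followed the same split, with 141, 15.7, 197 and 253 normalized counts after saline, 440.2, 120.4, 351 and 174 after MABsallo and 492, 25, 388 and 200.4 after MABsallo-VEGF at 3d. Its 2 low values were 15.7 and 25.0 against 120 to 672 in the other 22 libraries. Wnt10a too was lowest in these libraries (54.9 and 66.7 against 78.9 to 381), and so was Fzd10 (43.1 and 33.3 against 56.9 to 222). Wnt6 was highest of all 24 samples in saline replicate 8, with 219, but at 133 in MABsallo-VEGF replicate 2 it lay within the 49.8 to 180 of the others. The part of the epithelium in these values was not tested.

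Wnt5a, the chief ligand of the branch without beta-catenin, held 802, 282, 1265 and 1369 normalized counts after saline, 604, 1001, 886 and 602 after MABsallo and 995, 275, 767 and 962 after MABsallo-VEGF at 3d. The 2 libraries low in epithelial markers were the lowest again, and the groups overlapped. The fold changes against saline were 1.25 for Wnt4, 1.20 for Wnt7b and -0.07 for Wnt5a after MABsallo (log2), none called. Without the 2 low libraries they were 0.18, 0.31 and -0.57. In that fit limma called 0 of the 33 genes between MABsallo and saline and 0.475% of all genes lower, and Apcdd1 was at -1.49 (limma adjusted p = 0.0543), Sfrp2 at -1.49 (limma adjusted p = 0.0694) and Wif1 at -1.23 (limma adjusted p = 0.159).

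Sfrp5 was highest over all groups in MABsallo-VEGF replicate 11 at 7d, with 658 normalized counts, and in saline replicate 8 at 3d, with 478.

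**Figure D3:**
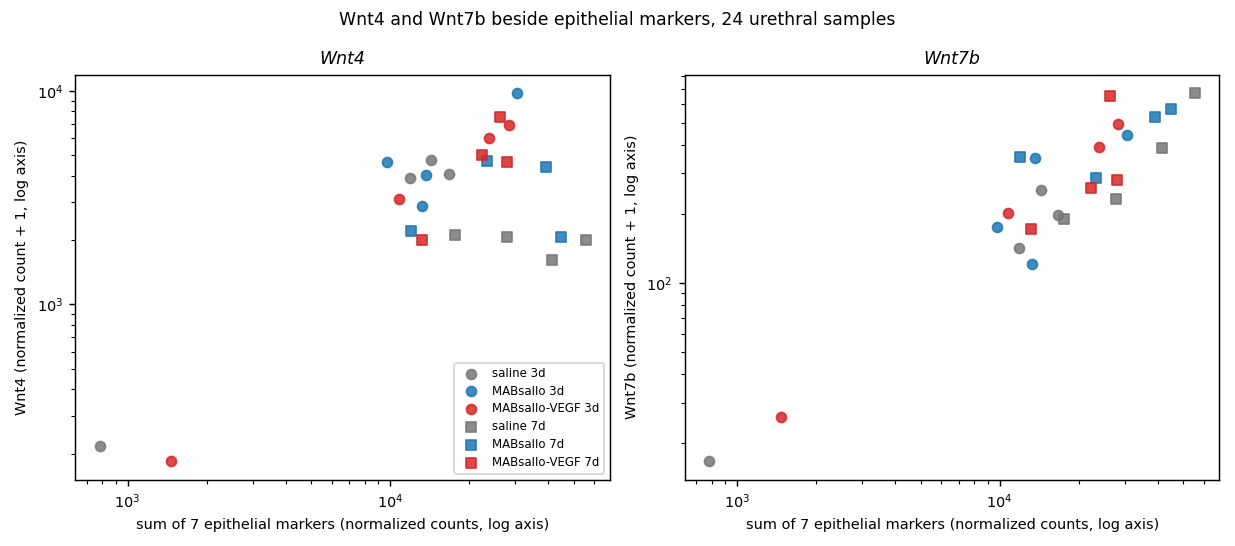
Normalized counts plus 1 of Wnt4 and Wnt7b against the summed counts of 7 epithelial markers, on log axes, 1 point per sample of the 6 groups. The 2 points at the lower left of each panel are saline replicate 8 and MABsallo-VEGF replicate 2 at 3d.

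At 7d the treatments were not told apart. limma called 0 of 33 genes for MABsallo against saline, for MABsallo-VEGF against saline and between both cell types, where 0% of all genes were called in each, and edgeR called 0 of them too. DESeq2 also called 0 of them, with 0%, 0.171% and 0.0199% of all genes called. The numbers at an unadjusted p under 0.05 were 0, 2 and 0, beside 1014, 1033 and 452 of all 16287 genes tested. Those 2 were Frzb, which held 406, 578, 720.1 and 478 normalized counts after saline and 337, 291, 106 and 230.1 after MABsallo-VEGF, and Sfrp1, which held 3396, 2863, 3436 and 2751 and 2271, 941, 2656 and 1951. Neither pair of groups overlapped, at log2 fold changes of -1.27 (SE 0.54, limma adjusted p = 0.748) and -0.76 (SE 0.35, limma adjusted p = 0.76).

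For the inhibitors that were low after MABsallo at 3d, the levels at 7d overlapped between MABsallo and saline. Apcdd1 held 1522, 1757, 2395 and 1387 normalized counts after saline, 1366, 1232, 914 and 2901 after MABsallo and 1923, 1064, 993 and 1346 after MABsallo-VEGF. Sfrp2 held 4045, 4854, 3647 and 2896, 5826, 3950.3, 4853 and 3274 and 8115, 6749, 4987 and 7515 in that order. All MABsallo-VEGF samples of Sfrp2 lay above all saline ones, at 0.83 (SE 0.43, limma adjusted p = 0.784), which was not called. Wif1 held 77.8, 99.6, 60.3 and 154, 99.1, 116, 51.7 and 37.4 and 39.9, 74.2, 102 and 167. The effect of MABsallo against saline was also tested for a difference between 3d and 7d. limma (0% of all genes), DESeq2 and edgeR called 0 of 33 genes. An unadjusted p under 0.05 was reached by 5 of 33, beside 2212 of all 16287 genes tested. The 5 were Apcdd1 (-1.29), Sfrp2 (-1.55) and Sfrp5 (-3.95), lower at 3d, and Fzd3 (1.58) and Axin2 (1.43), higher. For MABsallo-VEGF the same test called 0 of 33 with limma (0% of all genes) and 0 with DESeq2 and edgeR. There 1 of 33 had an unadjusted p under 0.05, beside 1341 of all 16287 genes tested.

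Of the 10 secreted and membrane inhibitors tested, 5 were called as rising between 3d and 7d after MABsallo and 1, Apcdd1, after MABsallo-VEGF. After saline limma called 0 of them (3.19% of all genes either way), although mean Frzb rose from 157 to 545 and mean Apcdd1 from 1013 to 1765. Tests of whether the effect of the cells differed between the days called 0 of 33 genes for either cell type. After MABsallo, 7 of 33 genes were called lower at 3d than at 7d and 3 higher, where 6.05% of all genes were called lower and 17% higher. After quantile normalization the genes called were 7 lower and 1 higher, and the background 11.3% and 13.4%. The lower ones were Apcdd1, Wif1, Sfrp5, Sfrp4, Frzb, Fzd4 and Wnt9b, and the higher ones Fzd3, Fzd7 and Wnt16. Of the 8 secreted inhibitors 4 were called and 7 were below 0, with a median log2 fold change of -1.18 beside 0.06 for all genes. These comparisons use the same MABsallo samples at 3d as those with saline.

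Apcdd1 held 358 ± 167 normalized counts at 3d and 1603 ± 886 at 7d after MABsallo (SD, n = 4), without overlap, and the difference was -2.17 (SE 0.38, limma adjusted p = 0.000328). It was called in all 16 alternative fits. After MABsallo-VEGF it went from 599 ± 169 to 1331 ± 423, again without overlap, at -1.14 (SE 0.38, limma adjusted p = 0.0382), and after saline from 1013 ± 406 to 1765 ± 447, with overlap, at -0.88 (SE 0.38, limma adjusted p = 0.214). The direction was the same in the 3 treatments. The call after MABsallo-VEGF was made in 10 of 17 alternative fits and was lost in 6 of 8 that left out 1 sample (limma adjusted p of 0.0513 to 0.118).

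Wif1 after MABsallo was lower at 3d than at 7d at -1.82 (SE 0.49, limma adjusted p = 0.00681), with no overlap, and was also called in all 16 alternative fits. Sfrp5 held 142, 113, 107 and 116 normalized counts at 7d after MABsallo, all above its samples at 3d, at -4.18 (SE 1.19, limma adjusted p = 0.0102). Sfrp4, a secreted Frizzled-related protein of stroma, went from 114, 394, 175 and 407 at 3d to 1254, 639, 1046 and 1332 at 7d, without overlap, at -2.11 (SE 0.66, limma adjusted p = 0.0188). Both were called in 13 or 14 of the 16 alternative fits.

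Frzb is a Wnt-binding protein first known from cartilage. After saline it held 86.1, 141, 161 and 239 normalized counts at 3d and 406, 578, 720.1 and 478 at 7d, which did not overlap, at -1.85 (SE 0.54, limma adjusted p = 0.0544). The call was missed with limma and made by DESeq2 (-1.80, DESeq2 adjusted p = 0.00605) and edgeR (-1.84, edgeR adjusted p = 0.0243). After MABsallo it held 375, 169, 259 and 539.5 at 7d and overlapped its samples at 3d, at -1.44 (SE 0.54, limma adjusted p = 0.0472), a call held in 8 of 16 alternative fits. After MABsallo-VEGF the difference was -0.76 (SE 0.54, limma adjusted p = 0.345).

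Among the saline urethras, limma called 0 of 33 genes between 3d and 7d (3.19% of all genes). DESeq2 (9.71% of all genes) and edgeR (7.9%) called 1 each, Frzb. An unadjusted p under 0.05 was reached by 4 of 33, beside 3070 of all 16287 genes tested. The 4 were Frzb, Apcdd1, Wnt10b (2.93) and Wnt7b (-1.65). Wnt10b held 0, 2.49, 3.35 and 0 normalized counts at 7d, at most 1 read per sample.

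Fzd4 was lower at 3d than at 7d after both cell types. After MABsallo it rose to 861, 1096, 789 and 2415 normalized counts at 7d, all above the samples at 3d, at -1.20 (SE 0.37, limma adjusted p = 0.0173). After MABsallo-VEGF it rose to 1781, 1089.6, 1151 and 876, where the lowest value at 7d lay just below the highest at 3d, at -1.19 (SE 0.37, limma adjusted p = 0.0265). Fzd3 went the other way after MABsallo, down to 27.9, 39.7, 40 and 29.1 at 7d without overlap, at 1.77 (SE 0.44, limma adjusted p = 0.00434), and this was called in 15 of 16 alternative fits. Fzd7 was at 0, 3.31, 0 and 4.15 at 7d, at most 1 read per sample, so that the 3d level was at least 4.63-fold higher against a floor of 3 reads per library, and at least 2.48-fold higher without MABsallo replicate 3 at 3d. The limma adjusted p of Fzd7 was 0.00935, and it was called in all 15 alternative fits that gave a value.

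**Figure D4:**
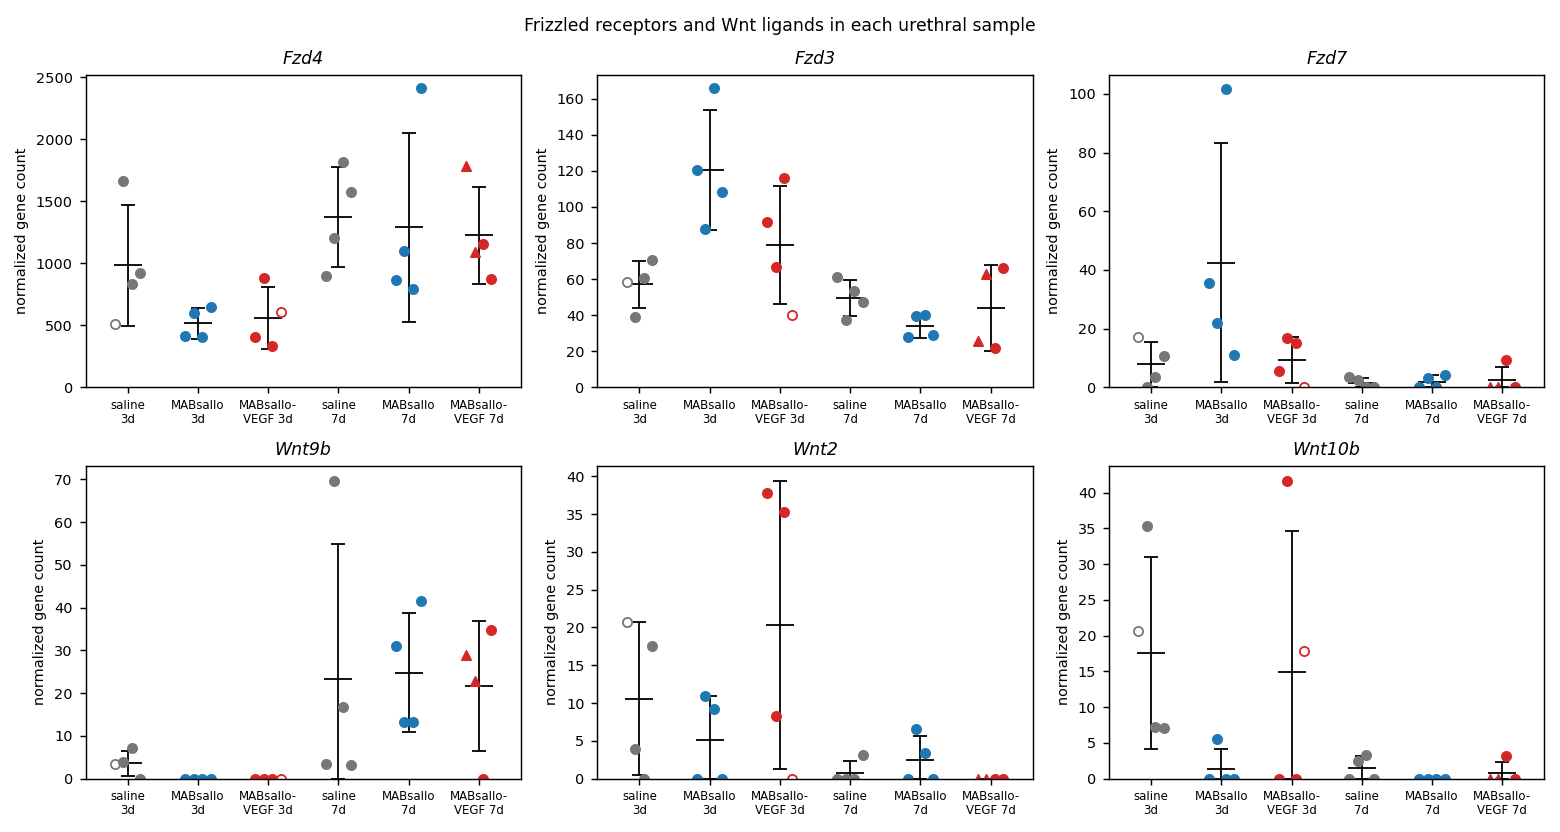
Normalized gene counts (vertical axes, from 0) of 3 Frizzled receptors and 3 Wnt ligands in the 6 groups, 4 samples each, with the mean and SD as bars cut at 0. Open circles are the 2 libraries that stood apart and triangles the recovered urethras. Wnt9b has no read in any of the 8 cell-treated samples at 3d and is above 0 in 7 of 8 at 7d.

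Wnt9b, a ligand of urogenital epithelium, had no read in the 8 cell-treated samples at 3d. At 7d it held 31, 13.2, 13.3 and 41.5 normalized counts after MABsallo and 29, 22.8, 0 and 34.7 after MABsallo-VEGF. In saline samples it held 3.44, 3.92, 7.15 and 0 at 3d and 3.38, 69.7, 16.7 and 3.14 at 7d. Against a floor of 3 reads per library the level at 3d was at least 1.21-fold lower after MABsallo and at least 1.24-fold lower after MABsallo-VEGF. These bounds fell to 0.94 without MABsallo replicate 13 at 7d and to 0.99 without MABsallo-VEGF replicate 12 at 7d, so that each rests on 1 library. The limma adjusted p were 0.00185 and 0.0129. The cell-treated libraries at 3d were also the shallowest, where 3 reads are worth more normalized counts.

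Wnt2, a stromal ligand of the beta-catenin branch, held 37.8, 8.33, 35.3 and 0 normalized counts after MABsallo-VEGF at 3d. It had no read in any MABsallo-VEGF sample at 7d, and so was at least 2.13-fold higher at 3d. This bound fell to 1.52 without replicate 1 at 3d and to 1.61 without replicate 3. Wnt2 was called there (limma adjusted p = 0.0420) with 1 sample of 3d at 0 too, and in 6 of 15 alternative fits. In the other groups it was at 20.7, 3.92, 0 and 17.6 after saline at 3d and between 0 and 10.9 elsewhere. Wnt16, named after its values were seen, held 49.7, 32.8, 55.4 and 27.1 after MABsallo at 3d and 49.6, 6.62, 0 and 8.3 at 7d, with overlap, at 2.39 (SE 0.91, limma adjusted p = 0.0499), and was called in 3 of 16 alternative fits.

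After MABsallo-VEGF, 3 of 33 genes were called lower at 3d than at 7d (Apcdd1, Fzd4 and Wnt9b) and 1 higher (Wnt2), where 2.24% of all genes were called lower and 13.1% higher. After quantile normalization the genes called were 5 lower and 0 higher, and the background 4.77% and 10.1%. Of the 8 secreted inhibitors 0 were called by limma, DESeq2 or edgeR. An unadjusted p under 0.05 was reached by 1 of the 8, beside 5447 of all 16287 genes tested. The median log2 fold change of the 8 was -0.70 beside 0.05 for all genes. The number called fell to 1 without MABsallo-VEGF replicate 1 or 3 at 3d or replicate 6 or 12 at 7d. It fell to 2 without replicate 7 or 11 at 7d. In these fits 9.66% to 12% of all genes were called higher and 1.65% to 2.1% lower. For MABsallo the number went from 10 to 5 without replicate 1 at 3d and to 6 without replicate 13 at 7d. There 14.4% and 14.9% of all genes were called higher and 4.81% and 4.4% lower. Striated muscle markers were not called in any of these comparisons, and smooth muscle markers were, with 3 of 5 lower at 3d after MABsallo (sums of 75474 to 135461 at 3d and 182538 to 203003 at 7d), 1 of 5 after MABsallo-VEGF and 1 of 5 after saline. All 5 adipocyte markers were called lower at 3d after MABsallo (sums of 405 to 1641 at 3d and 1106 to 34889.5 at 7d) and 2 of 5 after saline. Of the 5 macrophage markers 2 were called lower at 3d after MABsallo (sums of 660.3 to 6456 and 4596 to 15654), and of the 7 epithelial markers 1 was higher and 1 lower there and 1 lower after saline. Their part in these differences was not tested.

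Axin2, the negative feedback gene that beta-catenin induces, held 86.1, 86.2, 307 and 299 normalized counts after saline, 234, 274, 489 and 174 after MABsallo and 297, 142, 227 and 165 after MABsallo-VEGF at 3d. At 7d it held 132, 194, 238 and 198, 102, 89.4, 117 and 166 and 337, 131, 102 and 56.7 in the same order. Groups of the same day overlapped, and the fold change of MABsallo against saline at 3d was 0.74 (SE 0.49, limma adjusted p = 0.306). After MABsallo the samples of 3d all lay above those of 7d, at 1.23 (SE 0.49, limma adjusted p = 0.0596), which missed the threshold, and DESeq2, which called 23.5% of all genes, called it (1.30, DESeq2 adjusted p = 0.0319). Rspo3, an R-spondin that stabilises Frizzleds, held 72.3, 102, 42.9 and 59.8 after saline at 3d, 56.8, 120.4, 0 and 65.1 after MABsallo and 27, 75, 116 and 62.3 after MABsallo-VEGF, which overlapped. At 7d it held 20.3, 14.9, 46.9 and 15.7, 21.7, 49.7, 18.3 and 24.9 and 54.4, 34.2, 31 and 9.46 in that order.

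Of 55 other genes of the Wnt pathway found in the table, 52 were tested. Between MABsallo and saline at 3d, 7 were called higher and 1 lower, where 9.4% and 2.86% of all genes were. Lrp6, the co-receptor, was higher with means of 1122 against 279 normalized counts, at 2.15 (SE 0.40, limma adjusted p = 0.0059). The kinase Gsk3b, which marks beta-catenin for degradation, was at 1.41 (SE 0.36, limma adjusted p = 0.0156). The R-spondin receptor Lgr4 was at 1.89 (SE 0.51, limma adjusted p = 0.0186) and the formin Daam2 at 4.06 (SE 1.13, limma adjusted p = 0.021). The Frizzled-removing ligase Rnf43 was at 3.96 (SE 1.06, limma adjusted p = 0.0185), with means of 83.7 against 2.72. Its saline mean was under 1 read, worth 3.44 to 3.92 there, so that this fold change depends on the number added. Notum, an enzyme that inactivates Wnts by taking off their lipid, had no read after MABsallo and a mean of 23.1 after saline (limma adjusted p = 0.0151). In the MABsallo libraries 3 reads are worth 16.3 to 27.7, so that no fold is given. Ctnnb1, beta-catenin itself, was higher with means of 271 against 32.7, at 3.64 (SE 1.03, limma adjusted p = 0.0224), and so was the polarity co-receptor Ptk7 at 4.21 (SE 1.28, limma adjusted p = 0.0317). The 8 called thus held both positive and negative regulators of the pathway.

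The same list gave 0 called genes for MABsallo-VEGF against saline at 3d and 0 between the cell types (limma). The numbers at an unadjusted p under 0.05 were 7 and 4 of 52, beside 2923 and 999 of all 16287 genes tested. Between 3d and 7d, 15 were called higher and 3 lower after MABsallo and 6 higher and 2 lower after MABsallo-VEGF, where 17% and 6.05% of all genes were called higher and lower after MABsallo and 13.1% and 2.24% after MABsallo-VEGF. After saline 1 was called lower, where 3.19% of all genes were called either way, namely the feedback inhibitor Nkd1 at -1.09 (SE 0.30, limma adjusted p = 0.0449). Lrp6 was higher at 3d in both cell-treated groups, at 3.32 (SE 0.40, limma adjusted p = 3.08e-05) after MABsallo and 3.04 (SE 0.40, limma adjusted p = 0.000113) after MABsallo-VEGF. Gsk3a was lower, at -1.46 (SE 0.26, limma adjusted p = 0.000329) and -1.32 (SE 0.26, limma adjusted p = 0.0011). As among all genes, more of this list were called higher than lower at 3d. Scaled to the same total, the calls between MABsallo and saline were 7 higher and 4 lower.

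The 2 urethras labelled as recovered were compared with the 10 other urethras of 7d in a fit of these 12 samples. Apcdd1l, a relative of Apcdd1 in the membrane, held 232 and 119.8 normalized counts in the recovered urethras. In the other MABsallo-VEGF urethras it held 43.4 and 28.4, after saline 50.7, 42.3, 36.8 and 25.2 and after MABsallo 74.3, 69.5, 18.3 and 37.4. Both recovered samples were above the 10 others. The log2 fold change was 2.06 (SE 0.53, limma adjusted p = 0.744), with an unadjusted p of 0.00137.

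limma called 0 of the 30 genes tested there (0% of 15285 genes). An unadjusted p under 0.05 was reached by 4 of the 30, beside 748 of the 15285. edgeR called 0, and DESeq2 called 1, Apcdd1l (2.04, DESeq2 adjusted p = 0.0371), where it called 0.101% of all genes. Against the other MABsallo-VEGF urethras alone the log2 fold change was 2.22. The study itself named this gene from these samples, so that its level here is a description. At 3d, where no urethra was labelled as recovered, it ran from 5.04 to 369.6 over the 12 samples, a wider range than at 7d. As both recovered urethras are MABsallo-VEGF, recovery and treatment cannot be told apart except within that group of 4.

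Apcdd1 itself held 1923 and 1064 in the recovered urethras, within the range of the others. Sfrp1 was at 2271 and 941, Sfrp2 at 8115 and 6749 and Axin2 at 337 and 131, each overlapping the other urethras of 7d.

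**Figure D5:**
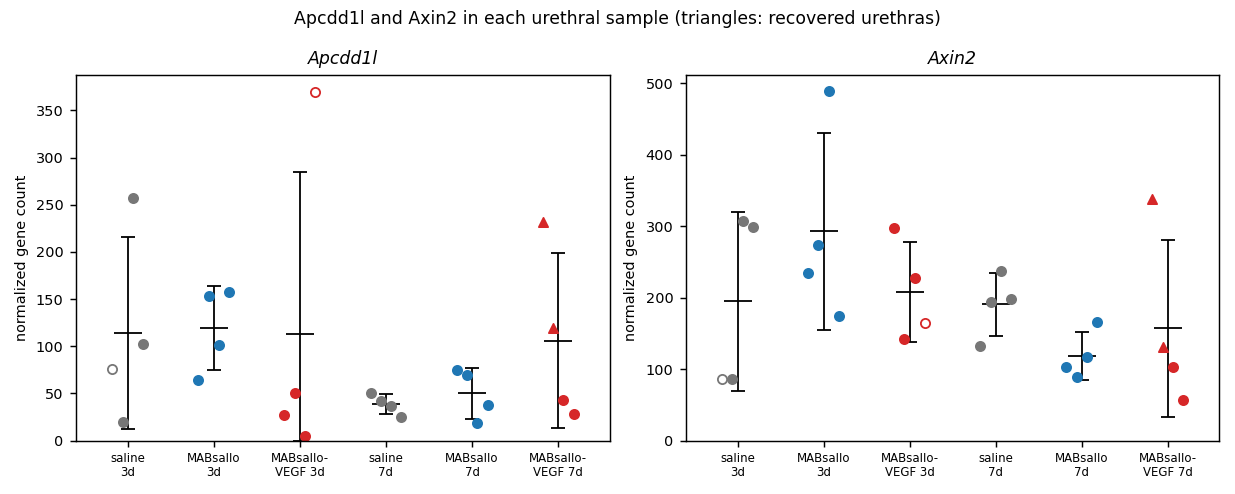
Normalized gene counts (vertical axes, from 0) of Apcdd1l and Axin2 in the 6 groups, 4 samples each, with the mean and SD as bars cut at 0. Triangles are the recovered urethras, whose Apcdd1l (120 and 232) lies above the 10 other samples of 7d, and the open circle at 370 is MABsallo-VEGF replicate 4 at 3d.

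At 7d the levels of Wnt4, Wnt5a and Wnt7b overlapped between the treatments. Wnt4 held 2121, 1994, 2066 and 1619 normalized counts after saline, 4383, 4669, 2057 and 2195 after MABsallo and 5017, 4632, 1995 and 7503 after MABsallo-VEGF. Wnt5a held 961, 637, 479 and 770.4, 362, 662, 475 and 344 and 686, 967, 512 and 719, and Wnt7b held 189, 672, 231 and 387, 529.7, 285, 572 and 353 and 258, 279.5, 171 and 653 in the same order. In saline urethras Wnt4 was narrow, and both cell-treated groups reached higher and held samples inside the saline range.

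Fzd1 at 7d held 518, 894, 757 and 1198 after saline, 613, 344, 797 and 531 after MABsallo and 609, 339, 987 and 369 after MABsallo-VEGF. Fzd6 was even, with 758, 936, 978 and 1050.3, 991, 1023, 697 and 730.4 and 871, 893, 915 and 1009 in that order. Dkk3 held 1840.03, 1225, 1457 and 1252, 1258, 1417, 912 and 1631 and 1273, 907, 1291 and 1393. For each of these receptors and for Dkk3 the groups overlapped.

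At 7d, Sfrp5 held 260.4, 64.7, 80.4 and 78.6 after saline and 105, 194, 658 and 37.8 after MABsallo-VEGF, where 1 high library in each set the mean. Sfrp4 held 1644, 1085, 348 and 1138 after saline and 751, 285, 1421 and 249 after MABsallo-VEGF. After MABsallo-VEGF at 3d, Sfrp4 held 146, 1325, 121 and 539, Frzb 205, 125, 65.6 and 169 and Sfrp1 1536, 4934, 3441 and 2462, and Sfrp1 held 1499, 2023, 2591 and 2556 after MABsallo at 7d. For Sfrp4 replicate 2 was high, which was 1 of the 2 libraries low in epithelial markers.

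Outside the naming rule given below, Wnt16 aside, were Wnt2b, Wnt5b, Wnt6, Wnt10a, Wnt11, Fzd2, Fzd5, Fzd9, Fzd10 and Dkk2, and 10 of the 11 genes below the filter. Some values of Wnt6, Wnt10a, Fzd10 and Dkk2 are given above. Wnt5b, Wnt6, Wnt10a, Fzd2, Fzd9, Fzd10 and Dkk2 were above 0 in all 24 samples, and Wnt2b, Wnt11 and Fzd5 were at 0 in some. None of these 10 was called with limma on all samples at the deposited scaling. Fzd2 was called lower between MABsallo and saline at 3d when scaled to the same total and after quantile normalization, and Wnt11 was called lower at 3d than at 7d after MABsallo-VEGF with quantile normalization. DESeq2 and edgeR both called Dkk2 between 3d and 7d after MABsallo, where replicate 3 at 3d held 2622 normalized counts and the other samples of both days 129 to 554.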

How the data were processed

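The authors prepared 3′ mRNA libraries (Lexogen QuantSeq) from 24 urethras, aligned them to Rnor6.0 with HISAT2, counted reads per gene with HTSeq and normalized them with DESeq2 size factors. The deposited signal is thus a normalized gene count. No comparison of the authors was used. Dividing each sample by the value of 1 read gave whole reads for 100% of its values, within 0.01 of a read. Floors of 3 reads cover counting error only.

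Groups and days came from the labels, with 4 samples a group. The code in each sample title opens with the day, except in the MABsallo group of 3d, whose prefix is not explained. Nothing says whether samples with the same number share anything, and p-values set a difference between groups against the spread between these samples. Genes with a mean of at least 2 were set on the scale log2(value + 1) and fitted together over the 6 groups with R 4.3.3 and limma 3.58.1, whose moderated test with a mean trend was two-sided and adjusted by Benjamini-Hochberg. Fold changes are on that scale, and those of low genes depend on the number added. For Sfrp5 between MABsallo and saline at 3d it was -3.73, but -2.62 with 5 added and -3.00 with DESeq2. Recovered urethras were compared in a fit of the 12 samples of 7d. The alternatives were adding 5 in place of 1, keeping low genes, a minimum mean of 10, scaling to the same total, quantile normalization, DESeq2 1.42.0 and edgeR 4.0.16 (quasi-likelihood, TMM) on recovered reads, each sample left out, 2 libraries that stand apart left out, a replicate block, and recovered against other MABsallo-VEGF samples. Leaving out the 2 libraries low in epithelial markers was chosen after seeing the data. The scripts were tested on simulated data.

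The genes, the other lists and the tests were chosen with earlier results of these data known. Named singly were the 12 called genes with the smallest adjusted p, the 3 with the highest mean in each role, and Apcdd1l. Genes outside this rule, Wnt16 included, were named after their values were seen. Endothelial and erythrocyte markers (1 of 4 and 0 of 3 called in any comparison) were also read, and 1 other marker list is not reported here. No annotation of Rnor6.0 was used, so gene positions are not given. Reads are not length-scaled and levels are not compared between genes.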

Additional observations from a re-analysis of the deposited data

Results flagged for a closer look

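In 5 of 117 groups of 4 samples looked at among the genes named, 1 sample lay far from the rest by Dixon's test at the 95% level, and chance gives about 1 in 20. Apcdd1l held 369.6 normalized counts in MABsallo-VEGF replicate 4 at 3d, with 50.01 in the nearest sample. Fzd1 held 396 in saline replicate 6 at 3d, with 792 in the nearest. Both are the libraries that stood apart. Rspo3 held 46.9 in saline replicate 3 at 7d, with 20.3 in the nearest. Sfrp1 held 4355 in MABsallo replicate 2 at 3d, with 1791 in the nearest. Sfrp5 held 260.4 in saline replicate 1 at 7d, with 80.4 in the nearest.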

How the results depend on the processing

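Between MABsallo and saline at 3d the 5 genes called became 10 when scaled to the same total, 2 with DESeq2, 2 with edgeR and 0 without the 2 libraries low in epithelial markers. Leaving out 1 sample gave 0 to 5, with 0 without saline replicate 8 or MABsallo replicate 1. For MABsallo-VEGF against saline at 3d, 0 became 2 without the 2 libraries that stood apart, and leaving out 1 sample gave 0 to 1. Between 3d and 7d after saline, 0 became 1 (Frzb) with a filter at 10, with DESeq2 and with edgeR. After MABsallo 10 became 6 with edgeR, and 5 to 11 with 1 sample left out. After MABsallo-VEGF 4 became 2 with edgeR, and 1 to 5 with 1 sample left out. For recovered urethras 0 became 1 (Apcdd1l) with DESeq2. The cause was not tested in these cases. The remaining comparisons gave 0 in every alternative run. Of 306 values of single genes under the alternatives, 216 kept their side of the threshold, 90 lost the call and 0 changed sign.

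The median log2 fold change of all genes between MABsallo and saline at 3d was 0.07, and -0.19 when scaled to the same total. With the replicate number as a block, 0 genes were called between the cell types at 3d, as without it. Samples with the same number correlated at 0.22, 0.15, 0.07 and 0.25 in their deviations from the group means. The correlation between samples with different numbers was not computed, so that these values cannot decide whether the numbers mark pairs. The samples were treated as unpaired. At 3d 3 reads are worth 10.3 to 27.7 normalized counts, which limits Wnt2, Wnt9b, Wnt10b and Fzd7. The same holds for Notum and Rnf43 among the other pathway genes.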
